A study of Mus musculus with 6 samples.

Results

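The cells described here are barcodes from mouse colon that carried the epithelial genes Epcam and Krt8 in single-cell libraries made from CD45-sorted cells. A barcode was a member if it had at least 200 genes, at most 10% of its UMIs from mitochondrial genes, at least 1 Epcam UMI, at least 2 Krt8 UMIs and no UMI of Cd3d, Cd3e or Cd3g, unless Muc2, Agr2 and Fcgbp were all at 3 UMIs or more. This rule found 1842 members among 40523 barcodes, of which 31304 passed the gene and mitochondrial limits. A further 102 barcodes were set aside by the goblet clause, and 1766 met the rule except for the mitochondrial limit. A UMI is a tag that counts 1 captured RNA molecule.

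The study profiled the colon of wild-type mice during dextran sodium sulfate (DSS) exposure, with 1 library in each of 6 groups. The pseudo germ-free (pGF) groups had 4 weeks of antibiotics before day 0, and at days 2 and 7 of DSS the antibiotics were given together with DSS. The specific pathogen free (SPF) groups, whose labels name no antibiotics, were controls at day 0 and had DSS for 2 or 7 days. The tissue was shaken in EDTA to remove epithelium before enzymatic digestion and the CD45 sort. The members are therefore epithelial barcodes left after 2 steps that take epithelium away, and their number is no measure of the epithelium in the tissue. Mouse strain, age, sex and the number of mice per library are not given in the sources used here. With 1 library per group, arm, day and library cannot be told apart, no test was made, and every interval given is a 95% counting interval.

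Absorptive colonocytes line the surface and upper crypts of the colon. They take up salt, water and short-chain fatty acids made by bacteria, burn these fatty acids for energy, and carry carbonic anhydrases, ion exchangers and a brush border. They are renewed from dividing cells at the crypt base and mature as they move to the surface. Products of the microbiota reach them directly, and DSS, a sulfated polysaccharide given in drinking water, injures them. Goblet cells make mucus, tuft cells are chemosensory and enteroendocrine cells release hormones, and all are neighbours of colonocytes in the same layer.

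The pGF libraries held 95 members at day 0, 793 at day 2 and 69 at day 7, and the SPF libraries held 116, 730 and 39. Members were 7.42% (6.05% to 8.997%), 10.6% (9.90% to 11.3%) and 1.05% (0.821% to 1.33%) of passing barcodes in pGF at days 0, 2 and 7. In SPF they were 4.92% (4.08% to 5.87%), 24.4% (22.8% to 25.9%) and 0.367% (0.261% to 0.501%) (exact binomial intervals). The share was thus highest at day 2 and lowest at day 7 in both arms. The mitochondrial limit removed 470 further barcodes of the same rule in pGF day 2, which is 37.2%, and 1020 in SPF day 2, which is 58.3%. The median depth per member was 32031, 24221 and 11002 UMIs in pGF at days 0, 2 and 7, and 31006, 18307 and 9007 UMIs in SPF. Over all pairs of libraries 892 barcode sequences occurred in both, at most 131 in any pair, and 1 of them was a member in both.

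**Figure D1:**
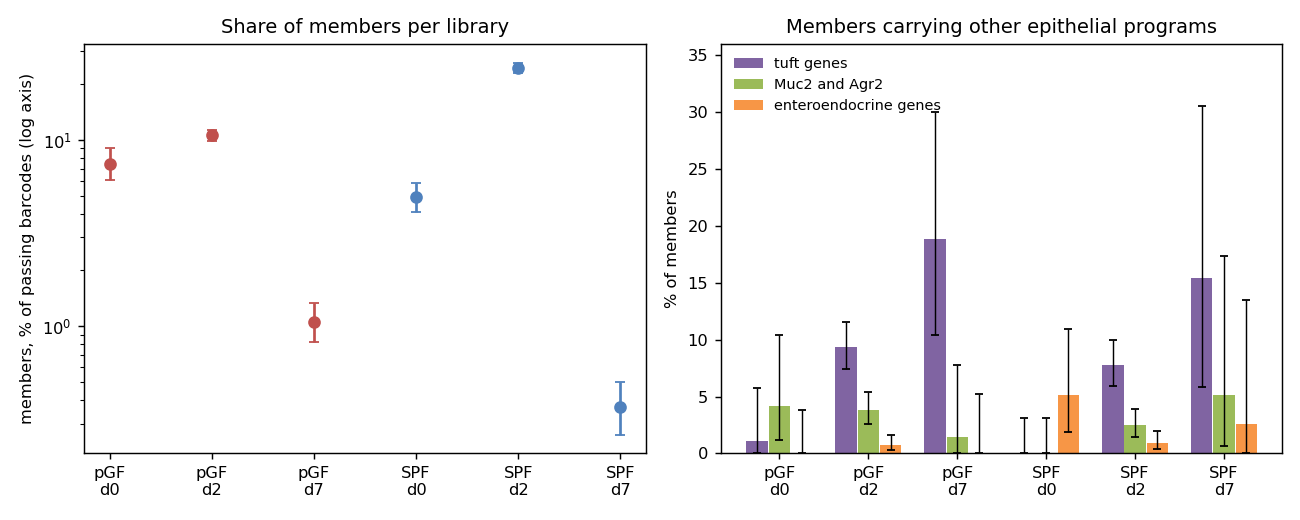
Left, members as a percentage of passing barcodes in each library on a log axis, with exact binomial intervals; right, the percentage of members that carried tuft genes, Muc2 with Agr2, or enteroendocrine genes, as bars with exact binomial intervals. Day 2 stands highest on the left in both arms, and on the right tuft genes mark 18.8% of pGF and 15.4% of SPF members at day 7.

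Genes of gut epithelium were high in the summed members of every library, but the colonocyte marker Car1 was in only part of the members. Beside Epcam and Krt8, which the rule used, Krt19, a keratin of simple epithelia, lay between 2111 and 3779 CPM in the 3 pGF libraries and between 1731 and 3913 CPM in the 3 SPF libraries. CPM is counts per 1000000 UMIs over the summed members of a library. Lgals4, a galectin of gut epithelium, lay between 3056 and 5145 CPM in pGF and between 3002 and 4988 CPM in SPF. In T cells of the same libraries Krt19 was at 1.94 to 20.01 CPM in pGF and at 1.81 to 22.5 CPM in SPF. Hnf4a and Cdx2, transcription factors of intestinal epithelium, were nearly level across libraries, at 191 to 207 CPM and 137 to 154 CPM in pGF and at 188 to 204 CPM and 130.5 to 151 CPM in SPF. Car1, the carbonic anhydrase that marks colonocytes, had a UMI in 67, 491 and 33 pGF members at days 0, 2 and 7 and in 84, 457 and 19 SPF members, so many members were without it.

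Other epithelial kinds were inside the rule. At least 4 of 12 tuft genes were detected in 151 members, Muc2 and Agr2 both at 3 UMIs or more in 55, and at least 3 of 10 enteroendocrine genes in 20, leaving 1618 with none of these marks. Tuft-marked members were 1 of 95, 74 of 793 and 13 of 69 in pGF at days 0, 2 and 7, and 0 of 116, 57 of 730 and 6 of 39 in SPF. The 0 in SPF day 0 has an upper bound of 3.13%. Their Dclk1, a kinase used as the usual tuft marker, was detected in 95.4% of them and in 2.72% of the unmarked 1618, although the tuft-marked had a median of 5491 UMIs against 22357. Dclk1 is 1 of the 12 genes that chose them.

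Ptprc, which encodes CD45, the protein sorted on, was detected in 2.11%, 14.6% and 18.8% of pGF members at days 0, 2 and 7, and in 7.76%, 10.1% and 41.0% of SPF members. In T cells it was detected in 91.8% to 98.2% in pGF and in 87.3% to 96.5% in SPF. Most of the members were therefore without detected Ptprc RNA despite a depth above that of the T cells. The tuft-marked members differed from the rest: 84 of 151, or 55.6% (47.3% to 63.7%), had a Ptprc UMI, against 140 of 1618, or 8.65% (7.33% to 10.1%), of the unmarked. Coro1a, a leukocyte actin regulator that was not used to choose them, was detected in 7.95% of tuft-marked and 4.94% of unmarked members, and Laptm5, a leukocyte lysosomal gene, in 9.27% and 5.75%. Rac2, a GTPase of blood cells that was not used either, was detected in 52.3% and 4.26%, and Alox5ap, a leukotriene synthesis gene that was used, in 54.3% and 2.60%. Cd3e was at 0 in both, as the rule required.

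The SPF day 7 library stood apart, and its 39 members were used for levels but for no fold. At least 3 of 6 neutrophil genes were detected in 13 of its 39 members, and 2 members held 99.8% of its UMIs of Apoa1, an apolipoprotein of the small intestine. Those 2 had 88080 CPM of Reg3b. The neutrophil marker list of 11 genes summed to 38487 CPM there, against 31.9, 29.7 and 156 CPM in pGF at days 0, 2 and 7 and 37.3 and 85.5 CPM in SPF at days 0 and 2. Its part in the SPF day 7 levels was not tested. Plasma cell RNA was also uneven: the list of 12 plasma cell genes summed to 1597, 902 and 361 CPM in pGF and to 14353, 8078 and 194 CPM in SPF at days 0, 2 and 7. Immunoglobulin genes were left out of the named genes, and their part in the other results was not tested except where values without such members are given.

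Leiden clustering of all members gave 14 clusters, described here by their leading genes, with no test, since the same genes made the clusters. Car1 differed widely between clusters. It reached 31864 CPM in cluster 5 (146 members), which was led by Slc10a2 and Slc51a, a bile acid importer and a subunit of a bile acid exporter. It was at 67.4 CPM in cluster 0 (326 members), led by B3gnt7, Nxpe2, Krt36, Foxq1, Adh1 and Hoxb13, the last a homeobox gene of the distal colon. Cluster 1 (204 members) had the lectin gene Reg3g among its leading genes and 9740.2 CPM of Car1. Cluster 2 (194 members) was led by the water channel Aqp4 at 981 CPM and by the gasdermin genes Gsdmc2 and Gsdmc4.

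Clusters 3 (155 members), 6 (140 members) and 10 (63 members) were named surface colonocyte-like. They had 3, 4 and 3 genes of the surface maturation list among their 20 leading genes. Cluster 5 had 2 and was not so named, although its Krt20 was at 1250 CPM and its Phgr1 was the highest of all clusters, at 7419 CPM. Cluster 3 was led by Fxyd4, Tgm3 and Atp12a, cluster 6 by Slc9a3, the sodium-hydrogen exchanger, with Krt20 at 1325 CPM, and cluster 10 by Ly6g, Saa1, Car4, Aqp8, Duox2 and Duoxa2. Cluster 10 had the highest Aqp8, a water channel of surface colonocytes, at 1806 CPM, and the highest Lypd8, an antibacterial surface protein of colonocytes, at 13461 CPM. Its median depth was 3613 UMIs, against 23351 in cluster 6. Clusters 4 (151 members, led by Hells and Mcm6) and 7 (135 members, led by Ube2c and Birc5) were cell cycle-like. Cluster 8 (128 members) was goblet-like with 30820.2 CPM of Muc2, cluster 9 (119 members) tuft-like and cluster 13 (17 members) enteroendocrine-like. Muc2 was detected in only 47.7% of the members of cluster 8, so its summed level does not describe each of them. Median depths were low, at 2242 UMIs in cluster 8, 2898 in cluster 9 and 6056 in cluster 13. Clusters 11 (41 members) and 12 (23 members) were led by leukocyte genes, S100a9 and S100a8 in the first and Jchain and Mzb1 in the second, and whether their barcodes hold RNA of more than 1 cell was not tested. No doublet caller was run.

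**Figure D2:**
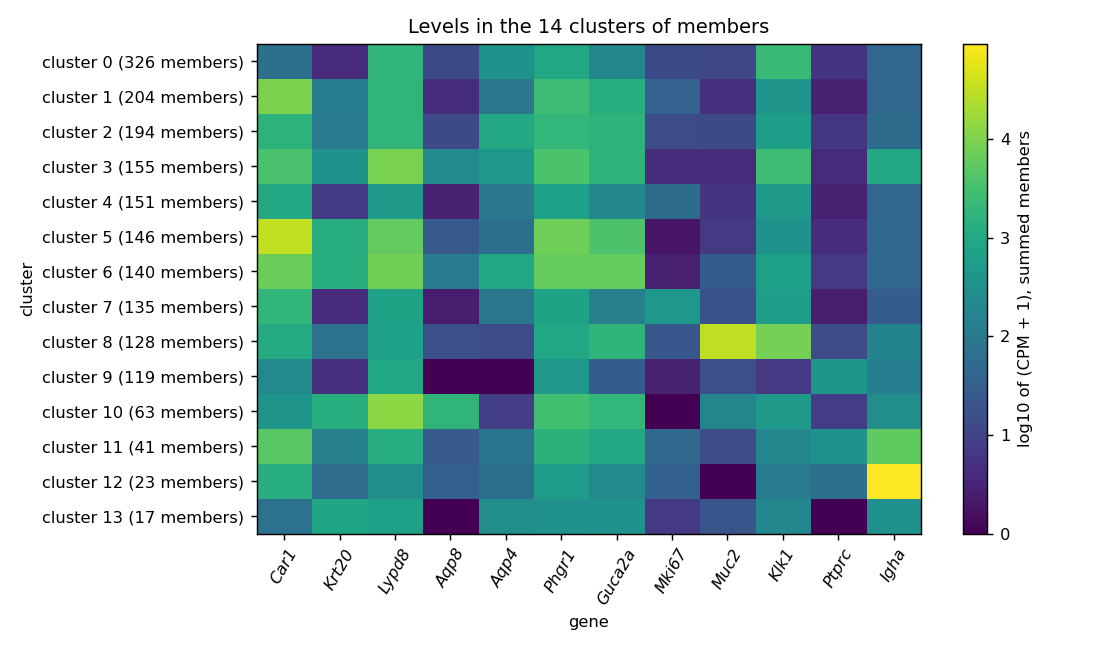
Level of 12 genes in each of the 14 clusters of members, as log10 of (CPM + 1) over the summed members, with the number of members beside each cluster. Car1 is brightest in cluster 5 and faint in cluster 0, Muc2 stands out in cluster 8 and Igha in cluster 12.

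Within single libraries Car1 was as uneven. Its median over members was 3038, 79.4 and 0 CPM in pGF at days 0, 2 and 7, and 1226, 205 and 0 CPM in SPF. Members above 10000 CPM were 36.8%, 15.8% and 11.6% in pGF and 24.1%, 11.2% and 10.3% in SPF, and they held 93.5%, 86.6% and 72.5% of all Car1 UMIs in pGF and 85.2%, 66.4% and 87.5% in SPF. Hoxb13 went the other way across members of pGF day 2. It was detected in 66.9% of the members without Car1 and in 43.4% of those with it, at median depths of 21672 and 25721 UMIs. T cells of that library had it in 0.494%. In SPF day 2 the shares were 56.8% and 43.8%, at 15436 and 20375 UMIs.

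The metallothioneins differed between arms at every day. Mt1 and Mt2 encode small cysteine-rich proteins that bind zinc and copper, and their promoters carry metal response elements, the sites of the zinc-sensing factor MTF1. Both genes lie side by side on chromosome 8, Mt2 at 94172664 to 94173568 and Mt1 at 94179082 to 94180327 on the plus strand (GENCODE M21, GRCm38), with 5513 bases between them. Their promoters, 250 bases before to 50 after the RefSeq start (GRCm38.p6, plus strand), are printed because the pair moved together. Capitals mark matches to TGCACNC or TGCGCNC, the core of the metal response element, searched on both strands, and a match read from the minus strand appears as its reverse complement.
Mt1 promoter, chr8:94178839-94179138: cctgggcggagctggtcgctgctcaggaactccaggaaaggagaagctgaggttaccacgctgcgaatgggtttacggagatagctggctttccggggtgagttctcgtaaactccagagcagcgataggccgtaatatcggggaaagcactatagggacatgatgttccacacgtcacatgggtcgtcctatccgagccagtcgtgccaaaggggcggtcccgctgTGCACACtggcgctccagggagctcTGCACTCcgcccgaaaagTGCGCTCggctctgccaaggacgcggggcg
Mt2 promoter, chr8:94172368-94172667: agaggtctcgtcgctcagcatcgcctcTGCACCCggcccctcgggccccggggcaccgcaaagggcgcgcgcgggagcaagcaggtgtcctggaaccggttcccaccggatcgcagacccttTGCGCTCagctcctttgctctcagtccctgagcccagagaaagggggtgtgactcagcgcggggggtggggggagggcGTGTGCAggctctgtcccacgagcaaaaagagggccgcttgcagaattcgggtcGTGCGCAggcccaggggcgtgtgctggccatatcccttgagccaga
The Mt1 window holds 3 matches and the Mt2 window 4, with no overlap between matches. They begin at -23, 2 and 20 bases from the RefSeq start in Mt1, and at -223, -128, -50 and 4 in Mt2. Some of them therefore lie after that start. Of 32851 promoter windows of the same length, 1.97% hold at least 3 matches and 0.517% at least 4. A match is a run of letters and not a shown site.

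Mt1 was at 3432, 2674 and 3240.4 CPM in pGF at days 0, 2 and 7, and at 504.4, 717 and 924 CPM in SPF. Mt2 was at 445, 395 and 565 CPM in pGF and at 28.2, 91.3 and 79.5 CPM in SPF. For both genes the lowest pGF library lay above the highest SPF library. At day 2 the ratio pGF over SPF was 3.73 (3.65 to 3.81) for Mt1 and 4.33 (4.07 to 4.60) for Mt2, and at day 0 it was 6.81 (6.48 to 7.16) and 15.8 (12.9 to 19.5). The difference was spread over many members: the median member had 1785, 1476 and 1071 CPM of Mt1 in pGF and 356, 378 and 156 CPM in SPF. With every member thinned to 1000 UMIs, 69.5%, 67.1% and 56.9% of pGF members had an Mt1 UMI, against 36.9%, 36.7% and 30.6% of SPF members. Without thinning the shares were 97.9%, 91.4% and 72.5% in pGF and 77.6%, 76.7% and 51.3% in SPF. Thinning left out 0, 16 and 11 members in pGF and 5, 24 and 3 in SPF. T cells thinned the same way had an Mt1 UMI in 5.42%, 4.47% and 1.92% in pGF and in 5.51%, 6.03% and 11.2% in SPF.

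Barcodes without Epcam did not follow the members. Their Mt1 was at 843, 142 and 154 CPM in pGF and at 532, 970.1 and 1775 CPM in SPF at days 0, 2 and 7, so at days 2 and 7 it was lower in pGF. Among barcodes over the mitochondrial limit that met the rest of the rule, Mt1 was at 1691, 1769.9 and 2660.1 CPM in pGF and at 363, 421 and 451 CPM in SPF. Of 24 antioxidant and metallothionein genes 21 were tested at day 2, and Mt1 and Mt2 were the ones at least 2-fold higher in pGF, with none 2-fold lower. Across all 3171 tested genes 0.757% were 2-fold higher in pGF and 1.36% lower. Here and below a gene was tested in a pair if it reached 50 CPM in one of its libraries, and a fold is the log2 ratio of (CPM + 10), which understates the change of low genes. Prdx6, a peroxiredoxin of the same list, was at 1499, 824 and 948 CPM in pGF and at 1550.4, 1531 and 1482 CPM in SPF, lower in pGF at days 2 and 7 and level at day 0.

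**Figure D3:**
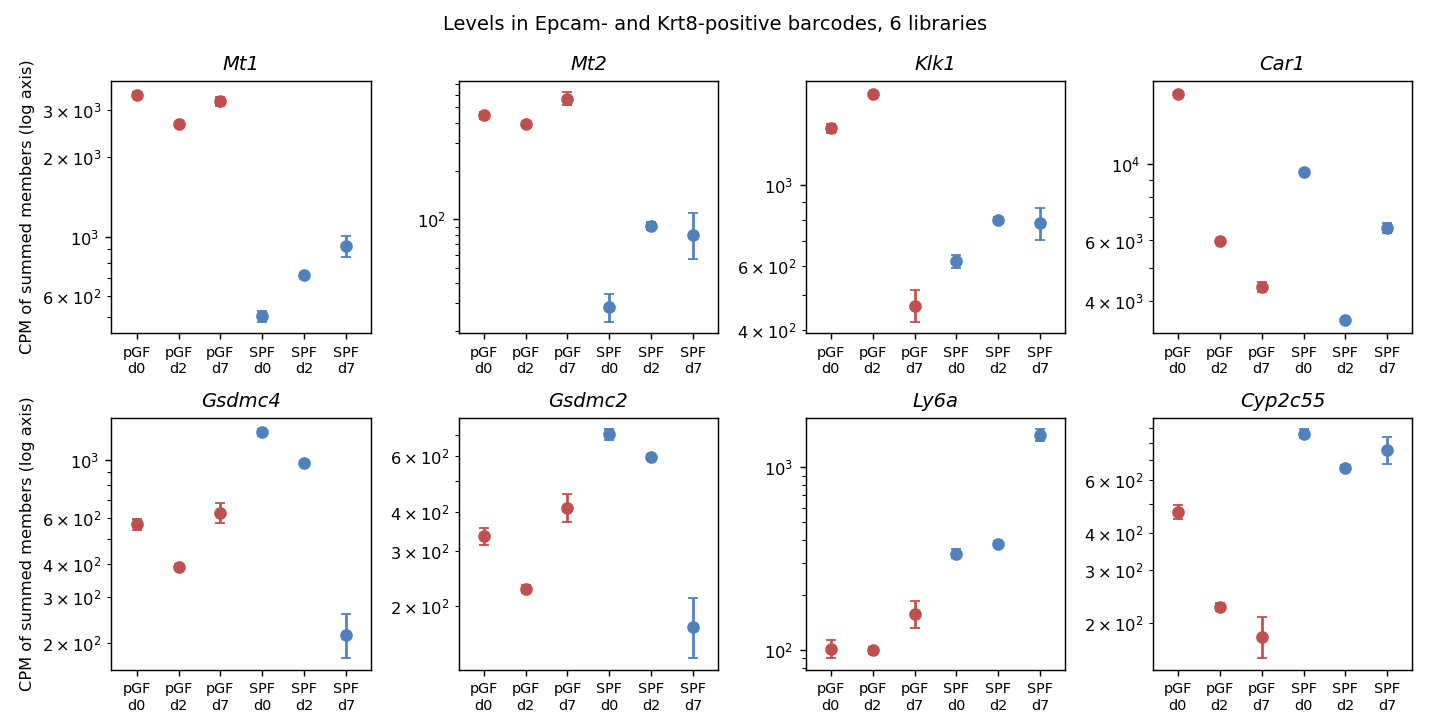
CPM over the summed members (log axis) of 8 genes in each of the 6 libraries, the pGF libraries in red and the SPF libraries in blue at days 0, 2 and 7 (d0, d2, d7), with exact Poisson intervals. Mt1 and Mt2 are higher in every pGF library than in any SPF library, Cyp2c55 is lower in every pGF library, and the SPF day 7 values rest on 39 members.

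At day 2, 24 genes were at least 2-fold higher and 43 at least 2-fold lower in pGF than in SPF among 3171 tested, and the median log2 fold of all of them was 0.00. Among the lower genes were the plasma cell genes Jchain, Igha, Igkc, Iglc1 and Iglc2. The lower genes numbered 22 without members over 1% immunoglobulin and myeloid UMIs and 27 without members carrying other epithelial or leukocyte marks. The other epithelial marks, here and below, are the tuft, goblet and enteroendocrine marks given above. Leukocyte marks are a Ptprc UMI, or over 1% of UMIs from immunoglobulin genes, Jchain, Lyz2, C1qa, C1qb and C1qc. Neutrophil genes were not among these marks. Among the higher genes, Klk1, a tissue kallikrein, was at 1435, 1779.7 and 466 CPM in pGF at days 0, 2 and 7, against 618, 801 and 785 CPM in SPF. Its day 2 ratio was 2.22 (2.17 to 2.27), and with a 5% mitochondrial limit its day 2 log2 fold was 0.63. At day 7 the summed level was lower in pGF, but 1 SPF member held 313 of 385 UMIs, and Klk1 was detected in 50.7% of pGF and 30.8% of SPF members. Mpst, which makes hydrogen sulfide from a cysteine product, was at 178 CPM in pGF day 2 and 78.8 CPM in SPF day 2. Ugt1a7c, a glucuronosyltransferase, was at 111 and 37.3 CPM, Hes1, the Notch target that favours absorptive fate, at 144 and 55.3 CPM, and Zg16, a lectin best known from goblet cells, at 129.8 and 34.3 CPM. Depp1, Nutf2, Rasd1 and Arc completed the named higher genes together with Ube2c, a mitotic ubiquitin ligase partner at 113 and 45.1 CPM. Ube2c and Birc5 were the 2 of 10 tested cell cycle genes that were 2-fold higher in pGF, with none lower and a list median of 0.47.

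Barcodes over the mitochondrial limit gave the same order at day 2 for Klk1, at 626 and 231 CPM, for Mpst, at 175 and 72.0 CPM, and for Zg16, at 505 and 149 CPM. They did not for Hes1, at 34.6 CPM in pGF against 37.5 CPM in SPF, or for Depp1, at 6.37 and 7.33 CPM. For Zg16 the 5 highest members held 50.3% of its UMIs in pGF day 2 and 35.4% in SPF day 2, and for Klk1 the 5 highest held 7.06% and 25.6%. At day 0 the 5 highest held 46.1% of the Klk1 UMIs in pGF and 26.8% in SPF. Without members with any goblet gene at 3 UMIs the day 2 log2 fold of Zg16 was 0.33.

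Among the lower genes at day 2, Gsdmc4 and Gsdmc2, members of the gasdermin C cluster on chromosome 15, stood out for their level. Gasdermins are pore-forming proteins that act in secretion and in lytic cell death. Gsdmc4 was at 567, 389.5 and 626 CPM in pGF at days 0, 2 and 7, and at 1268, 971 and 214 CPM in SPF. Gsdmc2 was at 334, 226 and 411 CPM in pGF and at 705, 598 and 171 CPM in SPF. The day 2 ratios were 0.401 (0.390 to 0.413) and 0.379 (0.365 to 0.393), and those at day 0 were 0.447 (0.423 to 0.472) and 0.474 (0.440 to 0.509). Gsdmc3, their neighbour, was at 118 CPM in pGF day 2 and 225 CPM in SPF day 2 and was not 2-fold lower. These genes are close copies of one another, and reads could be split between them in counting. Gsdmd, the gasdermin of inflammasome signalling, was at 32.0 and 65.8 CPM at day 2. Of 16 tested genes of cell death and pyroptosis Gsdmc2 and Gsdmc4 were the 2 that were 2-fold lower, with none higher. Over all tested genes 1.36% were 2-fold lower and 0.757% higher.

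Ly6a, a surface protein of the Ly6 family that marks repairing epithelium in mouse colon, was at 101, 99.3 and 158 CPM in pGF at days 0, 2 and 7 and at 336, 382 and 1501 CPM in SPF. Every SPF library lay above every pGF library, though 5 members held 92.0% of the UMIs at SPF day 7, and the day 2 ratio was 0.260 (0.246 to 0.274). It was the 1 gene 2-fold lower at day 2 among 14 tested injury and regeneration genes, against 1.36% of all tested genes. Of the 14, 13 had a negative fold and the median was -0.46. Areg, a growth factor of the list, was at 1353 CPM in pGF day 2 and 1510.4 CPM in SPF day 2. Barcodes without Epcam also had Ly6a, at 285, 99.96 and 139 CPM in pGF and at 336, 586 and 122 CPM in SPF.

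Genes that answer to bacteria were lower in pGF in part. Reg3b, an antibacterial lectin, was at 7.09, 76.3 and 877 CPM in pGF at days 0, 2 and 7, and at 434, 347 and 18876 CPM in SPF. Few members carried it: it was detected in 5.26%, 7.31% and 13.0% of pGF and in 12.9%, 13.3% and 56.4% of SPF members, and the 5 highest members held 43.1% of its UMIs in each day 2 library. Thinned to 1000 UMIs it was detected in 3.09% of pGF and 7.08% of SPF members at day 2, and in T cells in 0.113% and 0 of 464. With a 5% mitochondrial limit its day 2 log2 fold was -0.33. Reg3g was at 55.7 CPM in pGF day 2 and 91.8 CPM in SPF day 2. Duox2 and Duoxa2, the dual oxidase that makes hydrogen peroxide at the surface and its maturation factor, were low at days 0 and 2. Duox2 was at 14.2, 13.1 and 16.2 CPM in pGF and at 26.0, 45.3 and 287 CPM in SPF, and Duoxa2 at 3.55, 6.97 and 3.48 CPM in pGF and at 23.0, 31.9 and 279 CPM in SPF. For both, the highest pGF library lay below the lowest SPF library, and 5 members held 90.8% of the Duox2 UMIs at SPF day 7. Of 32 genes on the antimicrobial and flora-induced list 13 were tested at day 2. Of these 1 was 2-fold higher and 3 were 2-fold lower in pGF, against 0.757% and 1.36% of all tested genes. The list gene that was higher was Retnlb, a goblet cell product, 94.3% of whose UMIs came from 5 members. The list summed to 10058, 8312 and 10163 CPM in pGF at days 0, 2 and 7, and to 11762, 10570 and 74549 CPM in SPF.

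Cyp2c55, a cytochrome P450 of colon epithelium, was at 469, 225 and 179.6 CPM in pGF at days 0, 2 and 7 and at 858, 659 and 756 CPM in SPF, with a day 2 ratio of 0.342 (0.330 to 0.355). S100g, a calcium-binding protein of absorptive cells, was at 32.6, 28.2 and 29.0 CPM in pGF and at 121, 104 and 97.9 CPM in SPF. In both genes the summed level of every pGF library lay below that of every SPF library. At day 7 the share of members with a UMI was nearly level, at 31.9% in pGF and 30.8% in SPF for Cyp2c55 and at 8.70% and 7.69% for S100g. There 5 SPF members held 96.2% of the Cyp2c55 UMIs, and S100g was in 3 of 39. At day 0 S100g was detected in 27.4% of pGF and 22.4% of SPF members. Nfkbia, the NF-κB inhibitor that is itself an NF-κB target, was at 419, 349 and 273 CPM in pGF and at 419, 767 and 697 CPM in SPF, equal at day 0 and lower in pGF at days 2 and 7. Cldn4, a tight junction claudin, was at 161 CPM in pGF day 2 and 349 CPM in SPF day 2. It was the 1 of 13 tested tight junction genes past 2-fold, against 2.11% of all tested genes. Gadd45a, Ncoa7, Pard6b, Sprr2a2 and Ly6g were the other named lower genes, and Ly6g was detected in 4.79% of pGF and 15.9% of SPF members at day 2, or in 1.54% and 6.80% after thinning to 1000 UMIs. In barcodes over the mitochondrial limit Cldn4 was at 255 and 259 CPM, Pard6b at 121 and 127 CPM and Ly6g at 82.3 and 79.3 CPM, so the arms were close there.

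No gene passed 2-fold at day 2 in 3 of the lists of absorptive cell functions. None of 21 tested ion and water transport genes, none of 13 of ketogenesis and fatty acid use, and none of 17 of glycolysis was 2-fold higher or lower in pGF, against 2.11% of all tested genes. With lists this short, 0 is close to that share. Brush border and membrane mucin genes had the lowest median of these groups, -0.53, with 14 of 16 tested below 0 and 1 past 2-fold, Ceacam20, at 29.6 CPM in pGF against 71.4 CPM in SPF. Muc3, a membrane mucin, was at 1392 CPM in pGF day 2 and 2449.6 CPM in SPF day 2. Car1 was at 5966 and 3527 CPM, a ratio of 1.69 (1.67 to 1.71) of the summed levels. The median member went the other way, with 79.4 CPM for pGF day 2 against 205 CPM for SPF day 2. A Car1 UMI was found in 61.9% of the pGF and 62.6% of the SPF members. Members above 10000 CPM held 86.6% of the Car1 UMIs of pGF day 2 and 66.4% of those of SPF day 2. Cd74, the invariant chain of MHC class II, was at 74.4 CPM in pGF day 2 and 172 CPM in SPF day 2. Barcodes without Epcam had 2006 CPM and 4828 CPM of it, and without members carrying leukocyte or other epithelial marks Cd74 was at 27.9 and 50.1 CPM, a log2 fold of -0.67.

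Differences within clusters were set beside those over all members for the 10 clusters with at least 20 members of each day 2 library. Mt1 was at least 2-fold higher in pGF in 10 of 10 clusters, with log2 folds from 1.03 to 3.75, and Mt2 in 9 of 10. The smallest fold of Mt1 was in cluster 4, with 1558 CPM in pGF against 758 CPM in SPF, and the largest in the tuft-like cluster 9, where SPF had 1 UMI. In the surface-like cluster 3 it was at 5970.4 CPM in pGF against 600.2 CPM in SPF. Klk1 was 2-fold higher in 9 of 10, the goblet-like cluster 8 being the exception with 9064 and 8013 CPM. Ly6a was lower in all 10 and 2-fold lower in 7. Gsdmc4 was lower in 9 of 10 and 2-fold lower in 6, and in the tuft-like cluster 9, the exception, it rested on 5 UMIs in pGF and 1 in SPF. Ube2c was 2-fold higher in 0 of 10 clusters, with folds from -0.59 to 0.62. Other named genes held in fewer clusters: Hes1 was 2-fold higher in 3, Nutf2 and Rasd1 in 2 each. Reg3b was 2-fold lower in 5 and Ly6g in 2. S100g was 2-fold lower in 4 clusters but higher in pGF in cluster 3, at 138.8 against 10.8 CPM. Members were also spread unevenly: cluster 0 held 25.7% of pGF and 12.9% of SPF day 2 members, and cluster 10 held 1.26% and 5.34%. The part of this in the folds was not tested. The same genes were among those clustered on, so these are descriptions. Over the 606 pGF and 597 SPF members of day 2 without other epithelial or leukocyte marks, the log2 folds were 1.85 for Mt1, 2.02 for Mt2, -1.28 for Gsdmc4 and -1.94 for Ly6a.

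**Figure D4:**
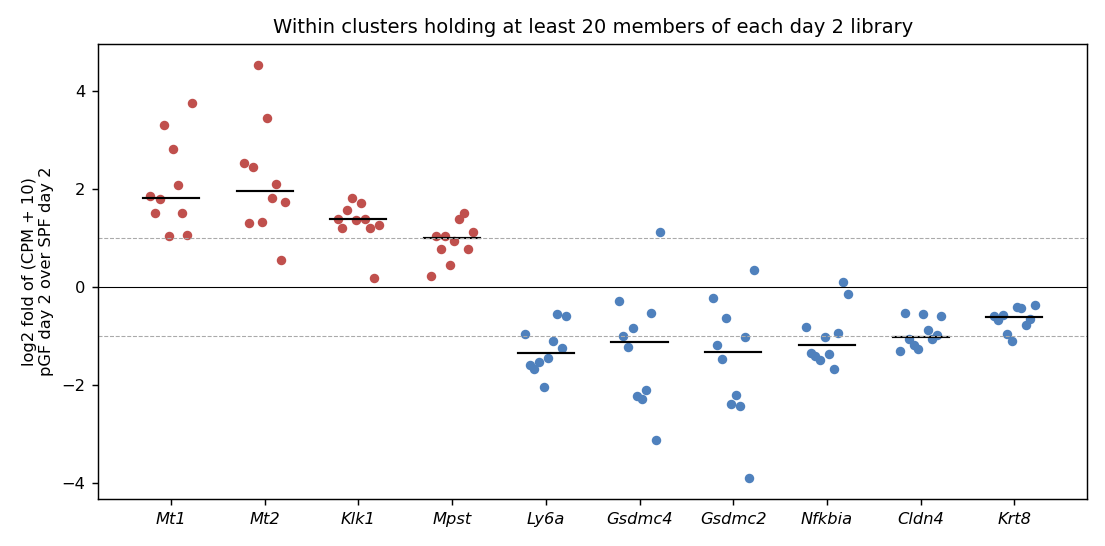
Log2 fold of (CPM + 10), pGF day 2 over SPF day 2, within each of 10 clusters (points) for 10 genes, with the median over clusters as a bar and dashed lines at 2-fold. Mt1, Mt2, Klk1 and Mpst lie above 0 in every cluster, Ly6a, Cldn4 and Krt8 below 0 in every cluster, and Gsdmc4, Gsdmc2 and Nfkbia below 0 in 9 of 10; Krt8 was used to choose the members.

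The same arms were compared at day 0, before DSS, in libraries other than those of day 2. There 23 of 3037 tested genes (0.757%) were 2-fold higher and 52 (1.71%) 2-fold lower in pGF than in SPF. Much of this rested on few cells. Muc2 was at 1466 CPM in pGF day 0 and 1.66 CPM in SPF day 0, with 99.9% of the pGF UMIs in 5 members, and Pyy, a gut hormone, was at 0 and 1389 CPM, with all SPF UMIs in 2 of 116 members. Without members carrying other epithelial or leukocyte marks the number of 2-fold genes in either direction was 28, against 75 (2.47% of those tested) with them, and Muc2 was at 32.1 CPM in pGF against 1.90 CPM in SPF. Mt2, Mt1, Klk1 and Zg16 were 2-fold higher in pGF at both days.

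Of the 2819 genes tested at both days, 15 were 2-fold higher in pGF at day 0 and 17 at day 2, and the 4 shared ones were 26.7% and 23.5% of these. Of the 17, 12 had a positive fold at day 0, and 2 were 2-fold lower in pGF there. Of the lower genes, 23 at day 0 and 29 at day 2, 15 were shared, which is 65.2% and 51.7%. Of the 29, 25 had a negative fold at day 0, and 0 were 2-fold higher in pGF there. Among the shared lower genes were Gsdmc4, Gsdmc2, S100g, Ly6a and Reg3b. Also shared were Cd74, the hormone gene Pyy, and the plasma cell gene Jchain with Ly6c2, both leading genes of cluster 12. The rest were of the classes left out of the named genes. The part of RNA from other cells in this overlap was not tested. Across the 2819 genes the correlation of the log2 folds was 0.21 (Pearson's r, a description over genes of the same libraries). Among ion and bile acid transport genes, Fxyd4, a regulator of the sodium pump, was at 226 CPM in pGF day 0 and 48.1 CPM in SPF day 0, and at 65.3 and 58.3 CPM at day 2. At day 0 it was detected in 20% of pGF and 11.2% of SPF members. There the 5 highest members held 62.7% and 78.7% of its UMIs. Slc10a2, the bile acid importer, was at 124 and 33.2 CPM at day 0 and at 29.4 and 8.88 CPM at day 2, where its log2 fold was 1.06 but its level was below that tested. Aqp4 was at 179.6 and 426 CPM at day 0 and at 319.8 and 388 CPM at day 2.

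**Figure D5:**
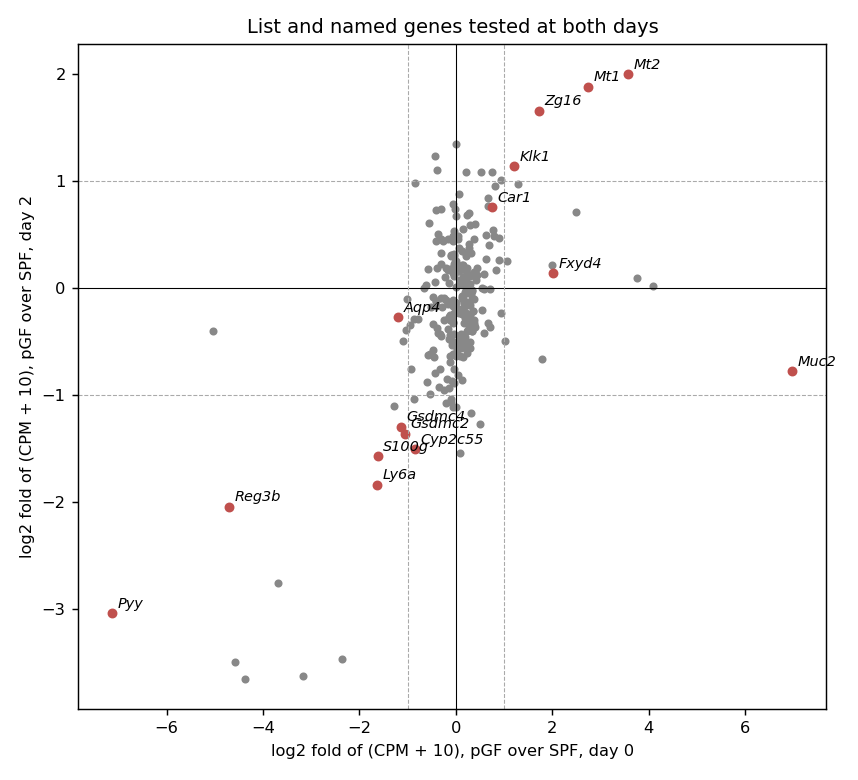
Log2 fold of (CPM + 10), pGF over SPF, at day 0 (x axis) and day 2 (y axis) for the 280 list and named genes tested at both days, with dashed lines at 2-fold. Mt1, Mt2, Zg16 and Klk1 lie past 2-fold in the upper right and Gsdmc2, Gsdmc4, S100g, Ly6a, Reg3b and Pyy in the lower left, while Fxyd4 lies to the right near 0 at day 2 and Muc2 furthest to the right, at -0.78 at day 2.

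Several genes of mature colonocytes were lower at day 2 of DSS than at day 0 in both arms. In pGF 25 of 3142 genes (0.796%) were 2-fold higher and 59 (1.88%) 2-fold lower at day 2 than at day 0, and in SPF 44 of 3166 (1.39%) and 67 (2.12%). In either direction this was 2.67% of tested genes in pGF and 3.51% in SPF. Each arm was set against its own day 0 library, and the comparisons share no library. Car1 was 0.374 times (0.370 to 0.378) its day 0 level in pGF and 0.372 times (0.366 to 0.377) in SPF. Selenbp1, a methanethiol oxidase of mature colonocytes, was at 889 CPM at day 2 and 2068 CPM at day 0 in pGF, and at 633 and 1999 CPM in SPF. Krt20, the keratin of surface cells, was at 237 and 614 CPM in pGF and at 298 and 639.6 CPM in SPF. Mpst, Sprr1a and B4galnt2 were also 2-fold lower at day 2 in both arms.

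Of 14 tested surface maturation genes 5 in pGF and 3 in SPF were 2-fold lower at day 2 and none higher. Their medians were -0.76 and -0.31, against 0.06 and 0.07 for all tested genes. Over all tested genes 1.88% in pGF and 2.12% in SPF were 2-fold lower, and 0.796% and 1.39% higher. Car4 and Aqp8 were past 2-fold in pGF, at 88.9 CPM at day 2 and 231 CPM at day 0, and at 31.1 and 74.5 CPM. Lypd8 and Phgr1 were past 2-fold in SPF. Glycolysis and hypoxia genes had medians of -0.58 in pGF and -0.51 in SPF, with 1 of 17 and 2 of 18 tested genes 2-fold lower. Ldha was at 642 CPM at day 2 and 1123 CPM at day 0 in pGF, and at 553 and 1033 CPM in SPF. Cell cycle genes had a median of 0.81 in pGF over 10 tested, with Ube2c and Pclaf 2-fold higher at day 2, and of 0.30 in SPF over 7 tested, with none. The difference between arms in these folds was not tested. Median depth per member at day 2 was also lower than at day 0 in both arms, and its part was not tested.

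Some day 2 changes went with the kinds of cell inside the rule. Muc2 was 2-fold higher at day 2 than at day 0 in SPF, at 1530.1 and 1.66 CPM, and the members with Muc2 and Agr2 held 98.4% of its UMIs at day 2. Muc2 itself was used to choose those members, so that share follows in part from the choice. Without members carrying other epithelial or leukocyte marks 55 genes were past 2-fold in SPF from day 0 to day 2, against 111 (3.51%) with them, whereas Car1 kept a log2 fold of -1.53 in SPF and -1.43 in pGF. Cyp1a1, the enzyme induced through the aryl hydrocarbon receptor, was at 40.6 CPM in SPF day 0 and at 0 CPM in the other 5 libraries. Its SPF day 0 level was below the 50 CPM of the test.

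At day 7 the 69 pGF members were compared with pGF day 0, where 84 of 3235 genes (2.60%) were 2-fold higher and 92 (2.84%) lower, together 5.44%. Among the named higher genes were Dclk1, Trpm5 and Sh2d6 of tuft cells, 8 of 8 tested tuft genes were 2-fold higher, and 13 of 69 members carried the tuft mark against 1 of 95 at day 0. Without members carrying the tuft mark, another epithelial mark or a leukocyte mark, 50 members remained. In them the log2 folds of Dclk1, Trpm5 and Sh2d6 were -0.10, 0.36 and 0.09. The tuft mark was itself set by tuft genes, Dclk1 among them. These folds, and the match of the mark with the higher tuft genes, therefore follow in part from the choice. Reg3b and Reg3g were higher at day 7, at 877 CPM against 7.09 CPM at day 0 and at 258 against 9.99 CPM, and stayed so in those 50 members, at 1066 and 314 CPM. The 5 highest members held 98.3% of the Reg3b UMIs at pGF day 7. Car1 was at 4409 CPM at day 7 and 15937 CPM at day 0, and Krt20 at 234 and 614 CPM. Against pGF day 2, 72 of 3242 genes (2.22%) were 2-fold higher and 41 (1.26%) lower at day 7, together 3.49%, with Klk1 at 466 and 1779.7 CPM.

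In SPF day 7 the summed members had 2557 CPM of Reg3g, 2795 CPM of the acute phase gene Saa1 and 347 CPM of Nos2, the inducible nitric oxide synthase. The 5 highest of the 39 members held 94.7% of the Reg3g and 94.8% of the Saa1 UMIs, and the median member had 0 of either. In the other 5 libraries these genes lay at 9.99 to 258, 371 to 608 and 0 to 1.07 CPM in pGF and at 37.9 to 91.8, 401 to 499.7 and 1.66 to 2.26 CPM in SPF. Barcodes without Epcam had 3.72, 32.3 and 297 CPM of the 3 genes in that library, so of the 3 only Nos2 was near its level in the members.

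Epithelial genes were low at the edge of the rule. The 59 members with exactly 2 Krt8 UMIs had a median of 1522 UMIs, 359 CPM of Epcam and 187 CPM of Car1. The 139 barcodes kept out by a single Krt8 UMI had a median of 10073 UMIs, 139 CPM of Epcam and 35.6 CPM of Car1. The 1783 members with 3 or more had a median of 21909 UMIs, 2164 CPM of Epcam and 6294 CPM of Car1.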

How the data were processed

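The authors deposited raw UMI counts per gene and barcode from a Chromium 5' kit, made with Cell Ranger 6.1.2 per the file headers, and the matrices list called cells only. Further tools in the submitters' processing notes are R 4.1.3 and Seurat 4.1.1, and the build named there is mm10. How strand and multi-mapped reads were counted is not given in the sources used here, and receptor libraries were not used here. The feature table has 32285 genes. Libraries held 32870737, 52772901 and 23335071 UMIs in pGF and 43949679, 37169685 and 46830975 UMIs in SPF at days 0, 2 and 7.

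From these counts, members were selected by the stated rule with Python 3.11.15 (numpy 2.4.6, scipy 1.17.1, pandas 2.3.3), their UMIs were summed per library and divided by the total to give CPM, and pairs of libraries with at least 50 members each were compared as log2 of (CPM + 10). No doublet caller was run and ambient RNA was not removed. Members were clustered on 2000 variable genes, 20 principal components and 15 neighbours with leidenalg 0.10.2 at resolution 0.6. Intervals are exact (Poisson, conditional binomial or Clopper-Pearson at 95%) and cover counting error only, and PCR or cell-to-cell variation is not in them. The fold script was checked on simulated counts. Named genes were the 12 of largest fold up and the 12 of largest fold down among genes with 50 CPM or more, 20 UMIs, a UMI in 10% of members and a level at least that of barcodes without Epcam, without antigen receptor, mitochondrial, ribosomal protein, haemoglobin and Gm- or Rik-numbered genes. Other genes named in the text are list members or were chosen after their values were seen. Of 651 genes on 37 lists 647 were in the feature table.

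The members, the lists and the rule were chosen with earlier results of these data known, and the marks of tuft, goblet and enteroendocrine cells, the cluster settings and the printed promoters were chosen after values were seen. Alternatives were other limits of the rule, other scalings, pseudocounts and filters, and left-out members.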

Additional observations from a re-analysis of the deposited data

How the results depend on the processing

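The number of members moved with the rule. At pGF days 0, 2 and 7 a 5% mitochondrial limit left 32, 527 and 35, and no such limit 188, 1263 and 129. In SPF a 5% limit left 58 and 259 at days 0 and 2, and no limit gave 212, 1750 and 66 at days 0, 2 and 7. Leaving out members with any goblet gene at 3 UMIs left 61 and 361 in pGF and 75 and 446 in SPF at days 0 and 2. At SPF day 7, 23 members were left without Ptprc and 17 without a goblet, tuft, enteroendocrine or leukocyte mark. The leukocyte marks were Ptprc and the share of immunoglobulin and myeloid UMIs, and neutrophil genes were not used.

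At day 2, pGF against SPF, the 24 higher genes became 9 with a pseudocount of 50 CPM and 52 with members thinned to 1000 UMIs. The 43 lower genes became 22 without members over 1% immunoglobulin and myeloid UMIs, 27 without all marked members, 28 with the pseudocount of 50, 79 both at a minimum of 10 CPM and with no minimum, and 70 when thinned. Higher genes on the lists numbered 6, and 10 without members with any goblet gene. The 12 lower ones became 19 with the 5% limit, 19 without goblet genes, 6 with the pseudocount of 50, 20 with either lower minimum and 20 when thinned. Without all marked members, an alternative chosen after seeing the data, genes past 2-fold numbered 28 for pGF against SPF at day 0, 55 for SPF day 2 against day 0, 93 for pGF day 7 against day 0 and 56 for pGF day 7 against day 2. The cause of these moves was not tested.

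The direction of 26 named genes was followed through 494 recomputed values, with 0 changes of sign, but 21 of the 26 were under 2-fold in at least 1 alternative. Mt1, Mt2, Ly6a, Gsdmc2 and Cyp2c55 were past 2-fold in all of them. Examples of such log2 folds are -0.33 for Reg3b and 0.63 for Klk1 with the 5% limit, 0.33 for Zg16 without goblet genes, 0.40 for Nutf2 when thinned and -0.77 for Ly6g with the pseudocount of 50. No paired analysis was possible because each group is 1 library, and for the same reason no library could be left out. Depth limits genes near 50 CPM, and the 39 SPF and 69 pGF members of day 7 limit that day.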

Other observations

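Siglecf, a sialic acid receptor best known from eosinophils, was detected in 73 of 151 tuft-marked members, or 48.3% (40.1% to 56.6%), and in 8 of 1618 unmarked members, or 0.494% (0.214% to 0.972%). Lyz2, the lysozyme of myeloid cells, was detected in 5.96% of tuft-marked and 5.38% of unmarked members, and Igha, an antibody heavy chain, in 44.4% and 50.8%. Tuft-marked members had a median of 5491 UMIs and unmarked ones 22357. Whether these members are single cells was not tested.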
